A study of Drosophila melanogaster with 36 samples.

Results

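Translation initiation factors are the proteins that bring the small ribosomal subunit, the initiator tRNA and an mRNA together before a protein chain is started. The fly genes studied here were all those whose symbol in the array's annotation begins with eIF, read from probe sets that name a single gene. This gave 40 genes of the 11981 tested. Where a gene had more than 1 probe set, the brightest over all arrays stood for it, and this applied to 2 of the 40 genes. The rule for choosing genes used no measured response, although it was set with earlier results of these data known. Another 4 genes with an eIF symbol in the gene table (eIF1A, eIF2alpha, eIF2gamma and eIF4H1) were not analysed here.

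Expression was measured in Kc167 cells, a line of Drosophila melanogaster embryonic cells with features of hemocytes (fly blood cells). On the day after plating, the cultures received fresh medium that held either 40 µg/mL methyl methanesulfonate (MMS), an alkylating agent that methylates DNA and other molecules, or no MMS. RNA was taken from MMS cultures at 1, 8, 24 and 72 h and from control cultures at 0, 1, 8, 24 and 72 h, with 4 arrays in each of the 9 groups. The series describes the cultures as independently grown and 4 in number, without saying whether each of them supplied every group. All arrays came from a single cell line. The values are on a log2 scale, where a difference of 1 is a 2-fold change. A gene was counted as changed at a Benjamini-Hochberg adjusted p under 0.05 in limma over all genes tested, and differences are given ± standard error (SE).

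Initiation proceeds in steps that the gene names follow. The eIF2 complex carries the initiator tRNA, and eIF2B recharges eIF2 with GTP after each round. eIF3 is a large scaffold on the small subunit, and the eIF4 factors bind the mRNA cap, unwind the leader and recruit the small subunit. eIF5 triggers GTP hydrolysis by eIF2, eIF5B joins the large subunit, and eIF6 keeps free large subunits apart from small ones. Cells are known to slow initiation under stress by phosphorylating eIF2, which at the same time favours translation of a few mRNAs such as that of ATF4 (crc in the fly).

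Of the 40 genes, 32 had a mean of at least 5 over all arrays. The other 8 genes, namely eIF3d2, eIF3f2, eIF3g2, eIF4E3, eIF4E4, eIF4E5, eIF4E7 and eIF4H2, read between 3.23 and 5 on every array, against array medians of 4.47 to 4.66 over all probe sets. These 8 genes are paralogues of eIF3, eIF4E or eIF4H genes. Hemocyte markers were present, with 12 of 12 measured at a mean of 5 or more, whereas 0 of 2 muscle markers and 0 of 3 fat body and gut markers reached that level. Of the neuron markers 2 of 4 did (elav and brp, with nSyb and para under it), and of the germline markers 3 of 4 (bam, AGO3 and aub, with vas under it).

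All 8 arrays of the 8 h time stood apart from the other 28, in MMS and control cultures alike. The array carries control probe sets at the 5' end, middle and 3' end of the eIF4A transcript, the RNA helicase of initiation. The 5' probe set read 11.88 to 12.29 at 8 h and 13.11 to 13.64 on the other arrays, while the 3' probe set read 13.98 to 14.18 at 8 h and 13.77 to 14.18 on the others. The excess of the 3' over the 5' signal was therefore 1.78 to 2.09 at 8 h, against 0.50 to 0.79 elsewhere. The mean signal of the 18S rRNA control probe sets was 11.64 to 12.24 at 8 h, against 4.00 to 9.65 elsewhere. Within a time, the 3' excess of eIF4A averaged 2.05 in MMS and 1.89 in control cultures at 8 h, and 0.70 in MMS and 0.57 in control cultures at 72 h. For both times the two-sided exact permutation p was 0.0286, the smallest that 4 against 4 arrays allows, and 0.114 after adjustment over 12 tests of array quality. The 3' excess averaged over the actin, GAPDH and eIF4A control probe sets was 0.71 in MMS and 0.58 in control cultures at 72 h. Its exact permutation p was 0.0286 there (0.114 adjusted). At 8 h this average was 1.63 in MMS and 1.55 in control cultures (exact permutation p = 0.143, adjusted p = 0.429). The part of RNA quality in the results at 8 and 72 h was not tested. Comparisons of control cultures at 8 h with 0 h, and of effects at 24 h with those at 8 h, cross these 2 kinds of arrays.

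**Figure D1:**
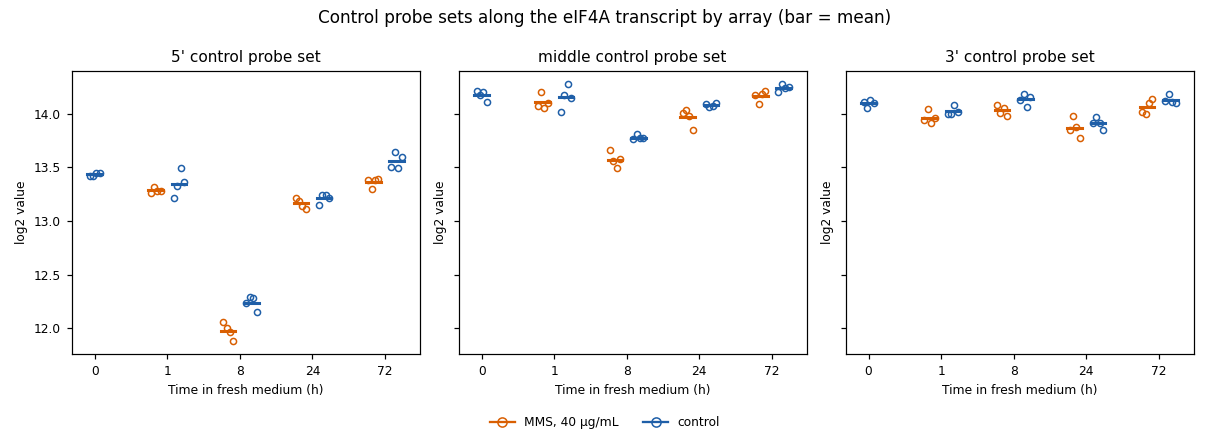
Log2 value of the 5', middle and 3' control probe sets of eIF4A on each array, against time in fresh medium (h), for MMS (orange) and control (blue) cultures, with a bar at each mean. The 5' signal lies between 11.88 and 12.29 on the 8 arrays of 8 h and between 13.11 and 13.64 on the others.

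At 1 h, 0 of 40 genes changed with MMS (limma), where 0.0% of all genes did. The smallest adjusted p among the 40 was 0.836, and 4 of the 40 had an unadjusted p under 0.05, as did 5.71% of all genes. At 8 h, 7 genes were higher and 8 lower in MMS than in control cultures, where 8.85% of all genes were higher and 11.5% lower. At 24 h, 8 were higher and 9 lower, against 10.2% higher and 10.0% lower of all genes. At 72 h, 7 were higher and 13 lower, against 17.0% higher and 12.5% lower of all genes. The median difference of the 40 was -0.08 at 8 h, -0.11 at 24 h and -0.17 at 72 h, and that of all genes -0.02, -0.02 and -0.05.

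Changes of 2-fold or more were few. They numbered 1 at 8 h, 2 at 24 h and 1 at 72 h among the 40 genes, where 1.32%, 4.05% and 4.25% of all genes changed so far. Over the 3 times, 28 of the 40 genes changed at least once, where 44.5% of all genes did. Both eIF2beta and eIF3j were higher at 8, 24 and 72 h, and eIF2A, eIF3d1, eIF3e and eIF3h were lower at each of them. Of the genes changed at both 24 and 72 h, 13 moved the same way and 1, eIF2Bdelta, the opposite way. These patterns over 8, 24 and 72 h are given without the share of all genes, so they do not set the 40 genes apart from others. The 12 genes with no call at these times were eIF1, eIF2Bepsilon, eIF3c, eIF3d2, eIF3f2, eIF3g2, eIF3k, eIF4A, eIF4E5, eIF4E7, eIF4G2 and eIF4H2.

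The calls at 8 h changed most when single arrays were left out. The count of 15 changed genes became 5 without control replicate 1, and 8, 7 and 8 without MMS replicates 2, 3 and 4. Under each of the 8 arrays left out in turn, 4 of the 15 genes stayed changed (eIF3e, eIF3j, eIF4B and eIF5), against 12 of 17 at 24 h and 16 of 20 at 72 h.

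**Figure D2:**
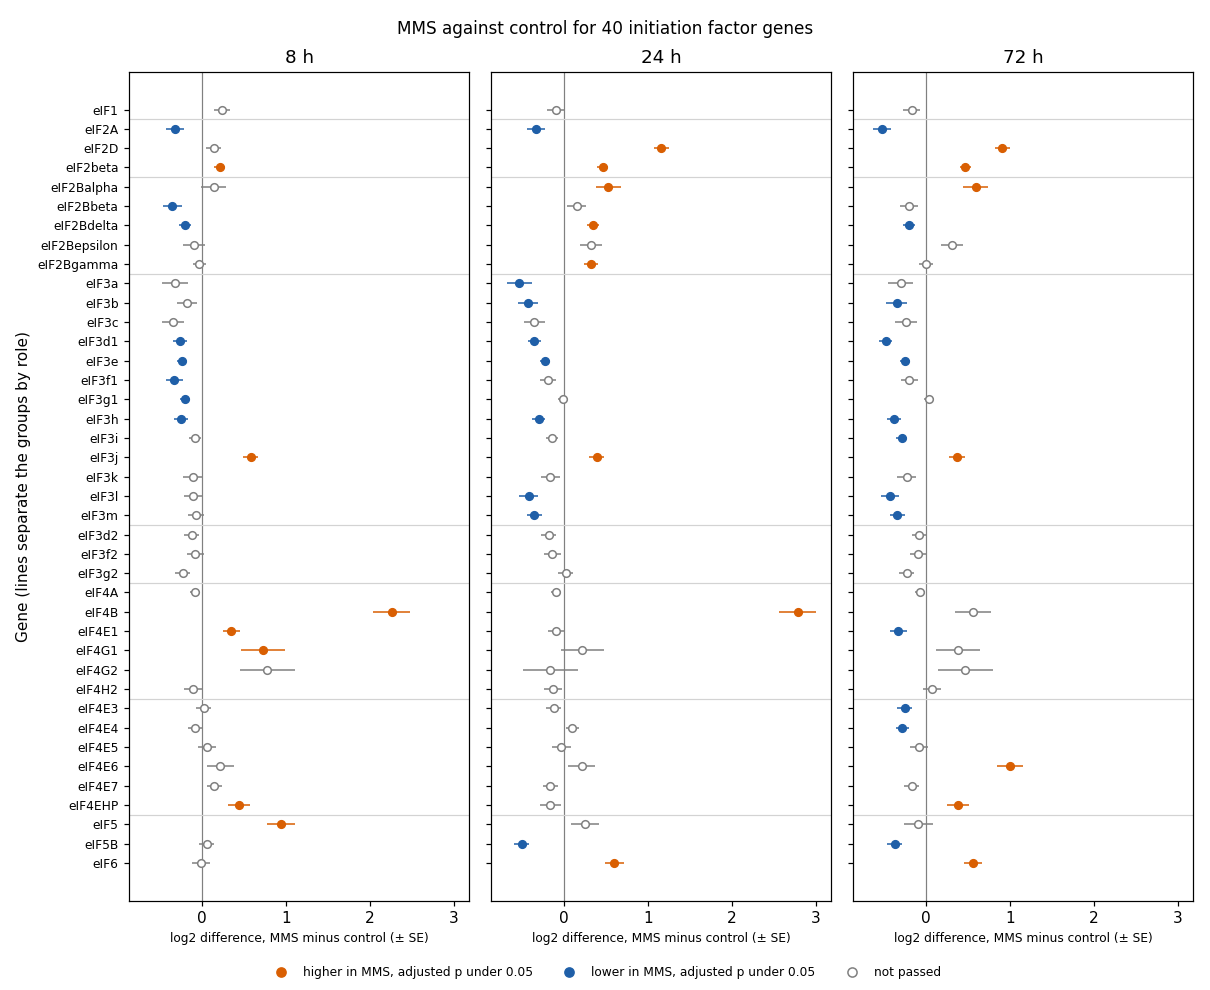
Log2 difference between MMS and control cultures (± SE) for the 40 genes at 8, 24 and 72 h, ordered by role, with filled points for genes changed at an adjusted p under 0.05. The eIF4B points at 8 and 24 h (2.26 and 2.78) lie apart from the rest, and most filled eIF3 points lie left of 0 with eIF3j to the right.

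The eIF4 group showed the strongest single response. eIF4B is an RNA-binding protein that stimulates the helicase eIF4A. At 8 h eIF4B read 9.23, 10.09, 10.11 and 9.91 in MMS cultures, against 7.10, 7.57, 8.10 and 7.54 in control cultures. At 24 h it read 10.12, 10.03, 10.14 and 9.99 in MMS cultures, against 7.15, 7.28, 7.25 and 7.47 in control cultures. The groups did not overlap at either time, and at 24 h the 4 MMS arrays lay between 9.99 and 10.14. The differences were 2.26 ± 0.22 at 8 h (4.78-fold, adjusted p = 3.09e-09 in limma) and 2.78 ± 0.22 at 24 h (6.88-fold, adjusted p = 4.71e-12 in limma).

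At 1 h eIF4B did not differ beyond the spread, with 6.68, 6.55, 5.53 and 6.71 in MMS and 5.90, 6.44, 5.82 and 6.14 in control cultures. At 72 h the gap had narrowed. eIF4B read 9.28, 9, 9.33 and 9.55 in MMS cultures and 8.84, 8.82, 8.86 and 8.40 in control cultures, so that all 4 MMS arrays still lay above the control arrays. The difference of 0.56 ± 0.22 missed the threshold (adjusted p = 0.0546 in limma). It passed when MMS replicate 2 was left out (0.65, adjusted p = 0.0330) and in 6 other settings, with adjusted p-values from 0.0101 to 0.0498. It did not pass in the remaining settings or without any other single array. Over all arrays left out in turn, the difference ran from 0.45 to 0.65, with adjusted p-values in limma up to 0.176. The effect at 72 h was smaller than that at 24 h by a test of the difference itself (-2.23 ± 0.31, adjusted p = 2.27e-06 in limma), whereas the effects at 24 and 8 h differed by 0.53 ± 0.31, which did not pass (adjusted p = 0.360).

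eIF4B also rose with time in cultures that received no MMS. Control cultures at 0 h read 6.22, 6.28, 6.94 and 6.11. Later control cultures were higher than these by 1.19 ± 0.22 at 8 h, 0.90 ± 0.22 at 24 h and 2.34 ± 0.22 at 72 h (adjusted p = 5.72e-05, 0.00362 and 1.02e-10 in limma). These differences share the 0 h arrays, and the last also shares the 72 h control arrays with the MMS comparison at 72 h.

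**Figure D3:**
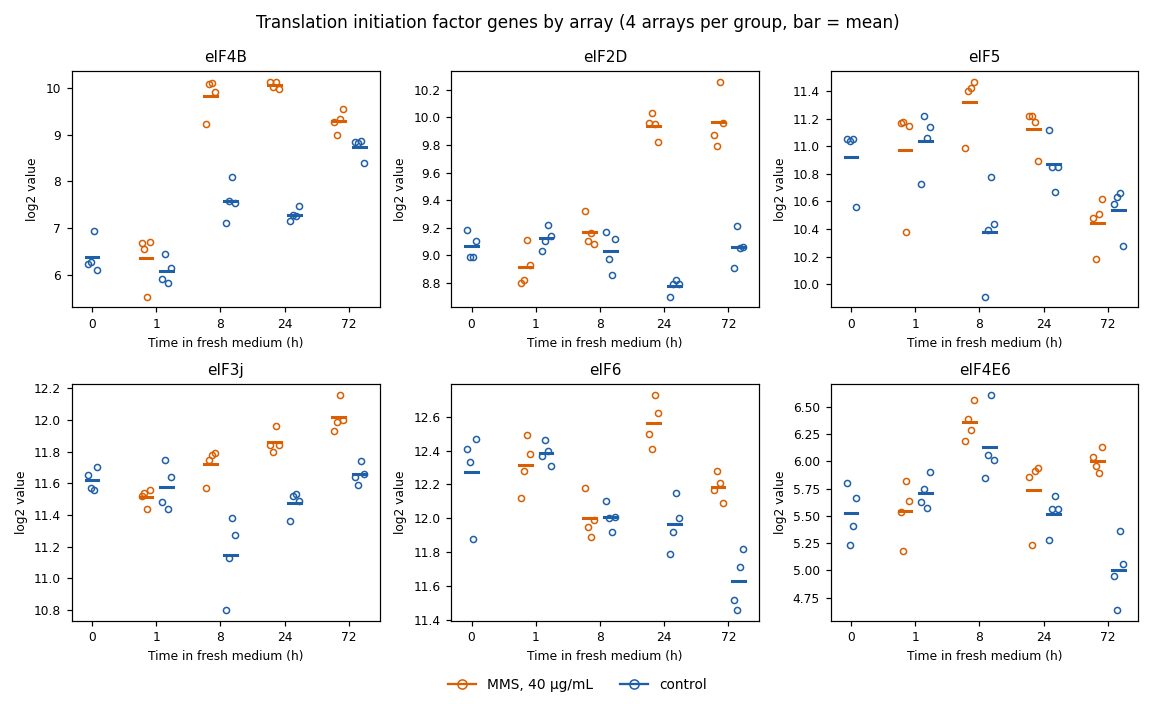
Log2 value on each array against time in fresh medium (h) for eIF4B, eIF2D, eIF5, eIF3j, eIF6 and eIF4E6, in MMS (orange) and control (blue) cultures with a bar at each mean. Each gene has its own vertical scale, and eIF4B in control cultures lies between 8.40 and 8.86 at 72 h, against 6.11 to 6.94 at 0 h.

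Of the 4 probe sets of eIF4B, 3 had higher values in MMS cultures at 8 and 24 h. Their differences at 8 h were 2.26, 2.41 and 2.55, and at 24 h 2.78, 2.69 and 3.47. At 72 h they were 0.56, 0.52 and 0.89, of which the last passed (adjusted p = 0.000426 in limma over all single-gene probe sets). The effect at 24 h exceeded that at 8 h by 0.53 ± 0.31, 0.27 ± 0.36 and 0.92 ± 0.27, of which the last passed (adjusted p = 0.0304 in limma over all single-gene probe sets). These probe sets differed more in control cultures, where the difference of 8 h from 0 h was 1.19 ± 0.22, 0.21 ± 0.25 and 2.34 ± 0.19, of which the first and last passed (adjusted p = 5.82e-05 and 7.39e-12, with 0.570 for the other). The remaining probe set had a mean of 4.33 over all arrays and differences of 0.03, -0.16 and 0.09 at the 3 times, none of which passed.

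**Figure D4:**
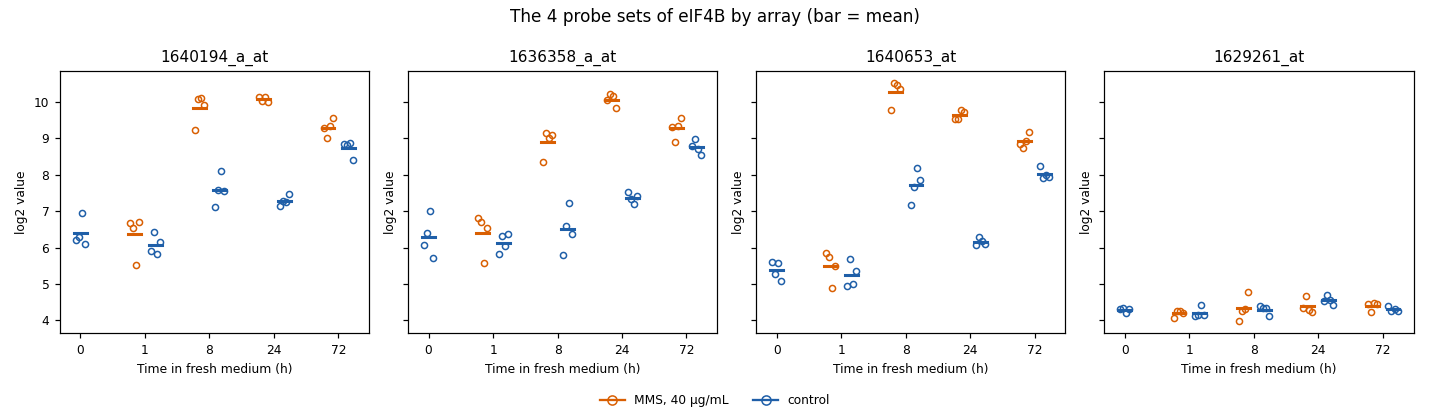
Log2 value on each array against time in fresh medium (h) for the 4 probe sets of eIF4B, in MMS (orange) and control (blue) cultures with a bar at each mean. The left panel is the probe set used for the gene, and the right panel, with a mean of 4.33, shows no separation of MMS from control cultures.

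The partners of eIF4B in the cap-binding complex had smaller differences. eIF4A averaged 13.96, 13.71 and 13.92 in MMS cultures at 8, 24 and 72 h, against 14.03, 13.79 and 13.98 in control cultures, with differences of -0.08, -0.09 and -0.07 that did not pass. eIF4E1, the main cap-binding protein, was higher in MMS cultures at 8 h (11.74, 12, 11.97 and 12 in MMS, against 11.18, 11.64, 11.90 and 11.61 in control cultures) and lower at 72 h (11.65, 11.68, 11.61 and 11.74 in MMS, against 12, 12.03, 12.03 and 11.94 in control cultures). The groups overlapped at 8 h (0.35 ± 0.10, adjusted p = 0.00801 in limma) and not at 72 h (-0.33 ± 0.10, adjusted p = 0.00881 in limma). Without control replicate 1, the 8 h difference of eIF4E1 was 0.21 and did not pass (adjusted p = 0.0897).

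eIF4G1, the scaffold that links the cap-binding protein to eIF3, was higher at 8 h, with 10.45, 11, 11.05 and 11.09 in MMS cultures against 9.28, 10.25, 10.75 and 10.39 in control cultures (0.73 ± 0.26, adjusted p = 0.0400 in limma). The groups overlapped, and control replicate 1 was the lowest of the 8 arrays. This call was lost on leaving out control replicates 1 or 2 or MMS replicates 2, 3 or 4, with adjusted p-values up to 0.278. Over all 8 arrays left out in turn, the difference ran from 0.44 to 0.93. eIF4G2, another scaffold gene needed in the male germline, varied widely between replicates, with 7.10, 8.24, 8.58 and 6.89 in control cultures at 0 h. Its difference at 8 h was 0.78 ± 0.33 (adjusted p = 0.0999). In control cultures it was higher than at 0 h by 1.25 ± 0.33 at 8 h and 1.40 ± 0.33 at 72 h (adjusted p = 0.00363 and 0.000811 in limma). eIF4H2 passed at none of the times.

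Among the relatives of eIF4E, eIF4E6 passed the 2-fold mark at 72 h. It read 6.04, 5.96, 5.89 and 6.13 in MMS cultures, against 4.95, 4.64, 5.36 and 5.06 in control cultures, without overlap (1.00 ± 0.16, adjusted p = 9.76e-06 in limma). Leaving out 1 array moved the difference between 0.88 and 1.12. The control mean of eIF4E6 at 72 h was 5.0, the mark below which genes are called dim here, against array medians of 4.47 to 4.66. At 8 h the 2 groups overlapped, with 6.19, 6.39, 6.29 and 6.56 in MMS and 5.85, 6.06, 6.61 and 6.01 in control cultures, and at 24 h they overlapped again, with 5.86, 5.23, 5.91 and 5.94 in MMS and 5.28, 5.56, 5.68 and 5.56 in control cultures. The effect at 72 h was larger than at 24 h (0.79 ± 0.23, adjusted p = 0.0171 in limma). That call was lost without MMS 24 h replicate 2 or control 72 h replicate 2, with adjusted p-values up to 0.0567. The control cultures had themselves fallen, by 0.52 ± 0.16 at 72 h against 0 h (adjusted p = 0.0104 in limma), a call lost without control 72 h replicate 2 or control 0 h replicate 1 (adjusted p-values up to 0.0698).

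eIF4EHP, a cap-binding protein that represses chosen mRNAs, averaged 8.86 in MMS and 8.42 in control cultures at 8 h (0.44 ± 0.13, adjusted p = 0.0175 in limma) and 7.99 in MMS and 7.61 in control cultures at 72 h (0.38 ± 0.13, adjusted p = 0.0302 in limma). At 8 h the call was lost without MMS replicates 3 or 4 or control replicate 1 (differences from 0.29, adjusted p-values up to 0.149), and at 72 h without replicates 3 or 4 of either group (from 0.31, up to 0.119). Its second probe set, with a mean of 6.50, gave 0.19 ± 0.17 and 0.09 ± 0.17 at these times, which did not pass. The 2 probe sets disagreed over time in control cultures, where at 72 h against 0 h one differed by -0.53 ± 0.13 and the other by 0.66 ± 0.17 (adjusted p = 0.00182 and 0.00169 in limma over all single-gene probe sets). The dim relatives eIF4E3 and eIF4E4 were lower at 72 h by -0.25 ± 0.09 and -0.28 ± 0.08, both below a mean of 5, and eIF4E5 and eIF4E7 did not pass the test. The eIF4E3 call was lost without MMS replicates 1, 3 or 4 or control replicates 1 or 2 (adjusted p-values up to 0.115). Over all arrays left out in turn, its difference ran from -0.28 to -0.21.

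In the eIF2 group, eIF2D changed most. In the fly it acts beside DENR in translating the ATF4 mRNA. At 24 h eIF2D read 9.96, 10.03, 9.95 and 9.82 in MMS cultures, against 8.70, 8.79, 8.82 and 8.79 in control cultures. At 72 h it read 9.87, 9.79, 10.26 and 9.96 in MMS cultures, against 8.91, 9.21, 9.05 and 9.06 in control cultures. The groups did not overlap at either time (1.16 ± 0.09, adjusted p = 3.78e-12, and 0.91 ± 0.09, adjusted p = 7.38e-10, in limma). At 8 h eIF2D read 9.32, 9.10, 9.16 and 9.08 in MMS and 9.17, 8.97, 8.86 and 9.12 in control cultures, which overlapped. The rise in effect between 8 and 24 h passed its own test (1.03 ± 0.13, adjusted p = 1.02e-06 in limma).

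eIF2beta, a subunit of eIF2, was higher in MMS cultures at 8, 24 and 72 h. It read 13.12, 13.10, 13.13 and 13.07 in MMS against 12.83, 12.93, 12.89 and 12.94 in control cultures at 8 h, 13.17, 13.15, 13.23 and 13.11 against 12.60, 12.75, 12.80 and 12.70 in control cultures at 24 h, and 13, 13.17, 13.18 and 13.11 against 12.56, 12.58, 12.71 and 12.72 in control cultures at 72 h. At no time did the groups overlap. The differences were 0.21 ± 0.07, 0.46 ± 0.07 and 0.47 ± 0.07 (adjusted p = 0.0255, 2.85e-06 and 1.16e-06 in limma). The 8 h call was lost without MMS replicate 2, MMS replicate 3 or control replicate 1 (0.21, 0.20 and 0.19, adjusted p = 0.0517, 0.0619 and 0.0899).

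eIF2A, which can deliver an initiator tRNA outside the eIF2 complex, averaged 11.80, 11.80 and 11.83 in MMS cultures at 8, 24 and 72 h, against 12.12, 12.13 and 12.35 in control cultures. It was lower by -0.32 ± 0.11, -0.33 ± 0.11 and -0.52 ± 0.11 (adjusted p = 0.0383, 0.0328 and 0.000484 in limma). The call at 72 h held for each array left out. At 8 h it was lost without MMS replicates 2, 3 or 4 or control replicates 1 or 2 (adjusted p-values up to 0.125). At 24 h it was lost without MMS replicates 3 or 4 or control replicates 1 or 2 (adjusted p-values up to 0.137). Over all arrays left out in turn, the difference ran from -0.39 to -0.29 at 8 h and from -0.40 to -0.27 at 24 h. eIF1, which helps scan for the start codon, differed by 0.24, -0.10 and -0.17 at the 3 times and did not pass.

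Of the 5 subunits of eIF2B, 0 were higher and 2 lower at 8 h (8.85% and 11.5% of all genes). At 24 h 3 were higher and 0 lower (10.2% and 10.0% of all genes), and at 72 h 1 was higher and 1 lower (17.0% and 12.5% of all genes). Differences ran from -0.35 to 0.14 at 8 h, from 0.15 to 0.53 at 24 h and from -0.20 to 0.59 at 72 h. From 8 to 24 h the difference moved up by 0.35 to 0.55 in each of the 5, and subunits were not tested against each other. This change passed for eIF2Bbeta, eIF2Bdelta and eIF2Bgamma (adjusted p = 0.0453, 0.000519 and 0.0373 in limma). It did not pass for eIF2Balpha and eIF2Bepsilon (adjusted p = 0.296 and 0.188). Leaving out single arrays lost the call of eIF2Bbeta for 13 of 16 arrays and that of eIF2Bgamma for 10 of 16. The comparison crosses the 8 h arrays and the others. eIF2Balpha averaged 9.90 in MMS and 9.37 in control cultures at 24 h and 10.24 in MMS and 9.66 in control cultures at 72 h (0.53 ± 0.15 and 0.59 ± 0.15, adjusted p = 0.00830 and 0.00310 in limma). Its 24 h call was lost without control replicate 1 (0.44, adjusted p = 0.0523). eIF2Bdelta was lower at 8 h, higher at 24 h and lower at 72 h (-0.20 ± 0.07, 0.35 ± 0.07 and -0.20 ± 0.07, adjusted p = 0.0485, 0.000466 and 0.0374 in limma).

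For eIF2Bdelta, both changes of effect between neighbouring times passed their own tests, at 0.55 ± 0.10 for 24 h against 8 h and -0.55 ± 0.10 for 72 h against 24 h (adjusted p = 0.000519 and 0.000229 in limma), and both held for each array left out. The single calls at 8 and 72 h did not (6 of 8 arrays left out at 8 h and 5 of 8 at 72 h lost them, with adjusted p-values up to 0.191). Over all arrays left out in turn, the differences at 8 and 72 h lay between -0.26 and -0.15. At 72 h eIF2Bdelta read 11.30, 11.32, 11.44 and 11.31 in MMS cultures, against 11.56, 11.71, 11.51 and 11.38 in control cultures, which overlapped and were both above the control cultures at 0 h (10.65, 10.45, 10.66 and 10.53). eIF2Bgamma was higher at 24 h (0.32 ± 0.08, adjusted p = 0.00167 in limma). eIF2Bbeta was lower at 8 h (-0.35 ± 0.11, adjusted p = 0.0228 in limma). That call was lost without MMS replicates 2, 3 or 4 or control replicates 1 or 2 (adjusted p-values up to 0.127). Over all arrays left out in turn, the difference ran from -0.43 to -0.27. eIF2Bepsilon, the catalytic subunit, differed by 0.32 at 24 h, which did not pass. It passed there with the replicate number as a block within the 24 h arrays (adjusted p = 0.00255) and without MMS replicate 3, and at 72 h without MMS replicate 2.

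Among the genes of the eIF3 complex, more were called lower than higher in MMS cultures. Of 13 subunits, 5 were lower and 1 higher at 8 h (11.5% and 8.85% of all genes), 7 lower and 1 higher at 24 h (10.0% and 10.2% of all genes), and 7 lower and 1 higher at 72 h (12.5% and 17.0% of all genes). The higher one was eIF3j each time. Differences of the subunits that were lower lay between -0.53 and -0.20, well under 2-fold. The median difference of the 13 subunits was -0.20, -0.30 and -0.29 at 8, 24 and 72 h, against -0.02, -0.02 and -0.05 for all genes. None of the 13 passed the test for a change of effect between 8 and 24 h or between 24 and 72 h.

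eIF3e and eIF3d1 were lower at each time. eIF3e read 12.17, 12.08, 12.07 and 12.09 in MMS cultures at 8 h, against 12.40, 12.33, 12.32 and 12.32 in control cultures. It read 12.38, 12.41, 12.35 and 12.24 in MMS cultures at 24 h, against 12.49, 12.56, 12.64 and 12.55 in control cultures. At 72 h it read 12.69, 12.74, 12.74 and 12.74 in MMS cultures, against 12.99, 13.03, 12.91 and 12.99 in control cultures. The groups did not overlap at any of these times, and the differences were small at -0.24 ± 0.06, -0.22 ± 0.06 and -0.25 ± 0.06 (adjusted p = 0.00602, 0.0120 and 0.00279 in limma). The 24 h call was lost without MMS replicate 4 (-0.18, adjusted p = 0.0660) or control replicate 3 (-0.19, adjusted p = 0.0514).

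eIF3d1, whose mammalian counterpart can bind the cap of certain mRNAs, read 12.36, 12.13, 12.27 and 12.16 in MMS cultures at 8 h, against 12.52, 12.48, 12.41 and 12.56 in control cultures. It read 12.40, 12.38, 12.24 and 12.18 in MMS cultures at 24 h, against 12.73, 12.66, 12.62 and 12.59 in control cultures. At 72 h it read 12.80, 12.72, 12.83 and 12.89 in MMS cultures, against 13.31, 13.25, 13.27 and 13.33 in control cultures. Again no groups overlapped (-0.26 ± 0.08, -0.35 ± 0.08 and -0.48 ± 0.08, adjusted p = 0.0115, 0.000496 and 5.23e-06 in limma). Without MMS replicate 2 the 8 h difference was -0.23 and did not pass (adjusted p = 0.0528).

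The other subunits called lower were eIF3f1, eIF3g1 and eIF3h at 8 h, eIF3a, eIF3b, eIF3h, eIF3l and eIF3m at 24 h, and eIF3b, eIF3h, eIF3i, eIF3l and eIF3m at 72 h. Those that held for each array left out were eIF3h, eIF3l and eIF3m at 24 h and eIF3h, eIF3i, eIF3l and eIF3m at 72 h. Without control replicate 1, the calls of eIF3f1, eIF3g1 and eIF3h at 8 h and of eIF3a and eIF3b at 24 h were lost. They were also lost without MMS replicate 3 (eIF3g1, eIF3h and, at 24 h, eIF3a) and MMS replicate 4 (eIF3f1, eIF3g1 and, at 24 h, eIF3b), and that of eIF3g1 further without MMS replicate 2 or control replicates 2 or 4. The largest adjusted p-values were 0.0969, 0.0745 and 0.0708 for eIF3f1, eIF3g1 and eIF3h at 8 h, and 0.0539 and 0.0579 for eIF3a and eIF3b at 24 h. At 72 h, eIF3b was lost without MMS replicates 1, 2 or 3 or control replicates 1 or 2 (adjusted p-values up to 0.0810). Over all arrays left out in turn, its difference ran from -0.41 to -0.30. eIF3c differed by -0.35 at 24 h, which did not pass. It passed there with the replicate block within the 24 h arrays (adjusted p = 0.00152), with the block over all arrays, with dim genes left out, after a further quantile normalization, and without MMS replicates 1 or 2. At 8 h it passed with dim genes left out, with only the arrays of the contrast, with the block within the 8 h arrays, and without control replicate 3. eIF3k passed at 72 h without MMS replicate 2 and did not pass with all arrays at any time.

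eIF3j, a loosely attached subunit that sits near the mRNA channel, went the other way. At 8 h it read 11.57, 11.75, 11.78 and 11.79 in MMS cultures, against 10.80, 11.13, 11.38 and 11.27 in control cultures. At 24 h it read 11.84, 11.80, 11.96 and 11.84 in MMS cultures, against 11.36, 11.52, 11.53 and 11.49 in control cultures. At 72 h it read 11.93, 11.99, 12.16 and 12 in MMS cultures, against 11.64, 11.59, 11.74 and 11.66 in control cultures. The groups were separate at all 3 times (0.58 ± 0.09, 0.39 ± 0.09 and 0.37 ± 0.09, adjusted p = 1.03e-05, 0.00106 and 0.00165 in limma), and each call held for every array left out. At 8 h the control cultures were below those at 0 h (-0.47 ± 0.09, adjusted p = 6.45e-05 in limma), while the MMS mean of 11.72 lay near the 0 h mean of 11.62.

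At 72 h the lower eIF3 values in MMS stood beside a rise in control cultures. Between 0 and 72 h, 10 of the 13 subunits rose in control cultures and 0 fell, where 16.7% of all genes rose and 19.8% fell. The rise of eIF3b was lost without control 72 h replicate 2 or control 0 h replicates 1 or 4 (adjusted p-values up to 0.139). The rises lay between 0.28 ± 0.06 for eIF3e and 1.14 ± 0.11 for eIF3l. This comparison shares the 72 h control arrays with that of MMS against control, so the 2 sets of values are given side by side only. eIF3l averaged 12.49 in MMS and 12.93 in control cultures at 72 h, with 11.79 in control cultures at 0 h. eIF3m averaged 12.68 in MMS and 13.02 in control cultures at 72 h, with 12.07 at 0 h. eIF3b averaged 12.54 in MMS and 12.89 in control cultures at 72 h, with 12.54 at 0 h. The MMS mean at 72 h lay above the 0 h control mean for eIF3l and eIF3m and at the same value for eIF3b. It lay below that mean for eIF3i (12.45 in MMS at 72 h, 12.57 in control cultures at 0 h) and eIF3f1 (12.83 and 12.87). For the remaining subunits it lay above. The MMS cultures at 72 h were not tested against the control cultures at 0 h.

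**Figure D5:**
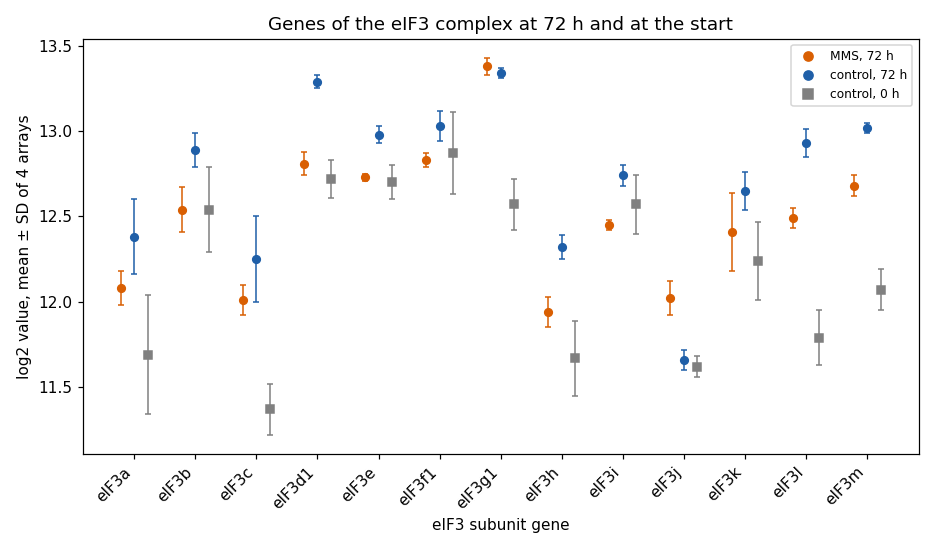
Mean log2 value ± SD of 4 arrays for the 13 eIF3 subunit genes in MMS cultures at 72 h (orange), control cultures at 72 h (blue) and control cultures at 0 h (grey squares). The 72 h control mean is the highest for each subunit but eIF3g1 and eIF3j, where the MMS mean is.

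Over the 9 group means, the 12 subunits other than eIF3j correlated with each other at a median r of 0.73 (66 pairs, from 0.02 to 0.97), and eIF3j with each of the 12 at a median r of 0.07 (from -0.29 to 0.33). These are descriptions over 9 points that share cultures and arrays. The MMS means in which eIF3j went the other way are among the 9 points, so the gap between the medians is not separate evidence. The means of the 8 h arrays, which stood apart in their control probe sets, are among them too. The paralogues eIF3d2, eIF3f2 and eIF3g2 had means below 5 and did not pass in any comparison of MMS with control.

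The factors of the last steps split by gene and by time. eIF5, the GTPase activator of eIF2, was higher at 8 h, with 10.99, 11.40, 11.42 and 11.47 in MMS cultures against 9.91, 10.39, 10.78 and 10.44 in control cultures (0.94 ± 0.17, adjusted p = 9.00e-05 in limma). The groups did not overlap, although replicate 1 was the lowest in each. At 24 h it read 11.22, 11.22, 11.18 and 10.89 in MMS and 11.12, 10.85, 10.67 and 10.85 in control cultures, and at 72 h 10.48, 10.18, 10.51 and 10.62 in MMS and 10.58, 10.63, 10.66 and 10.28 in control cultures. These overlapped, with differences of 0.25 and -0.09 that did not pass, except for that at 24 h with the replicate block within those arrays (adjusted p = 0.0309). The control cultures at 8 h were below those at 0 h (-0.54 ± 0.17, adjusted p = 0.0114 in limma), a call lost without control 8 h replicate 1 (-0.39, adjusted p = 0.0814).

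eIF6 overlapped between the groups at 8 h, with 12.18, 11.95, 11.89 and 11.99 in MMS and 12.10, 12, 11.92 and 12.01 in control cultures. At 24 h it read 12.50, 12.41, 12.73 and 12.62 in MMS cultures, against 11.79, 11.92, 12.15 and 12 in control cultures. At 72 h it read 12.17, 12.28, 12.21 and 12.09 in MMS cultures, against 11.52, 11.46, 11.71 and 11.82 in control cultures. The groups did not overlap at 24 or 72 h (0.60 ± 0.11 and 0.56 ± 0.11, adjusted p = 4.27e-05 and 8.96e-05 in limma). The effect at 24 h exceeded that at 8 h (0.61 ± 0.15, adjusted p = 0.00812 in limma). In control cultures eIF6 fell by 0.65 ± 0.11 between 0 and 72 h (adjusted p = 5.87e-06 in limma).

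eIF5B was lower at 24 and 72 h. At 24 h it read 11.27, 11.17, 11.10 and 11.05 in MMS cultures, against 11.74, 11.57, 11.60 and 11.69 in control cultures. At 72 h it read 11.58, 11.39, 11.41 and 11.63 in MMS cultures, against 11.83, 11.75, 11.90 and 12 in control cultures. The groups were separate at both times (-0.50 ± 0.09 and -0.37 ± 0.09, adjusted p = 6.03e-05 and 0.00202 in limma). At 8 h they overlapped, with 12.07, 12.11, 12.22 and 12.12 in MMS and 11.87, 12.07, 12.23 and 12.12 in control cultures, and the effect at 24 h was lower than that at 8 h (-0.56 ± 0.13, adjusted p = 0.00422 in limma).

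Across all 40 genes, the effect of MMS at 24 h differed from that at 8 h for 8 genes, 5 more positive (eIF2Bbeta, eIF2Bdelta, eIF2Bgamma, eIF2D and eIF6) and 3 more negative (eIF4E1, eIF4EHP and eIF5B), where 4.96% and 3.02% of all genes did. Of these 8, 4 held for each of 16 arrays left out in turn (eIF2Bdelta, eIF2D, eIF5B and eIF6). The count was 4 or 5 without MMS 24 h replicates 1 to 4, MMS 8 h replicates 2 to 4, control 24 h replicates 1 or 2 or control 8 h replicates 1, 2 or 4. With the replicate number as a block, eIF2Bbeta and eIF4EHP were lost and 6 genes were left. With arrays centred on their medians, 5 were more positive and 1 more negative. The effect at 72 h differed from that at 24 h for 5 genes, 1 more positive (eIF4E6) and 4 more negative (eIF2Bdelta, eIF2Bgamma, eIF4B and eIF4E4), against 9.13% and 4.53% of all genes. Of these 5, eIF2Bdelta and eIF4B held for each array left out. The count was 3 without MMS 24 h replicates 1 or 2, MMS 72 h replicate 1, control 24 h replicate 2 or control 72 h replicate 2. With the replicate block eIF2Bgamma was lost. The count was 2 more positive and 2 more negative with centred arrays, and 0 and 3 after a further quantile normalization.

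In control cultures, 0 of 40 genes changed by 1 h (limma, with 0.267% of all genes changed). At 8 h, 13 were higher and 5 lower than at 0 h, where 16.8% of all genes were higher and 16.4% lower. At 24 h, 6 were higher and 2 lower (4.82% and 10.8% of all genes), and at 72 h, 16 were higher and 3 lower (16.7% and 19.8% of all genes). The count of 8 at 24 h was 4 without control 24 h replicate 1 and 5 without control 24 h replicate 2 or control 0 h replicates 1 or 4. With the replicate block it was 6, without eIF3h and eIF6. Its split was 4 higher and 4 lower with centred arrays, and 6 higher and 0 lower after a further quantile normalization. The 3 lower at 72 h were eIF4E6, eIF4EHP and eIF6, all of which were higher in MMS than in control cultures at that time, a comparison that shares the same 72 h control arrays. For eIF4EHP this holds for the brightest probe set only. Its other probe set rose by 0.66 ± 0.17 in control cultures and differed by 0.09 ± 0.17 with MMS, which did not pass. The control call of eIF4E6 was lost without control 72 h replicate 2 or control 0 h replicate 1.

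Genes that act around the initiation factors were read from 2 lists. Of 36 listed regulators and partners, 29 were measured. At 8 h 7 were higher and 3 lower (8.85% and 11.5% of all genes), at 24 h 5 were higher and 3 lower (10.2% and 10.0%), and at 72 h 7 were higher and 4 lower (17.0% and 12.5%). Their median differences were 0.21, 0.04 and 0.13, against -0.02, -0.02 and -0.05 for all genes. Around eIF2, PPP1R15, which directs a phosphatase to eIF2, was higher at 8, 24 and 72 h (0.64 ± 0.09, 0.54 ± 0.09 and 0.25 ± 0.09), as was crc, the fly ATF4 (0.46 ± 0.08, 0.40 ± 0.08 and 0.30 ± 0.08). Gcn2, a kinase that phosphorylates eIF2, was higher at the same times (0.72 ± 0.20, 0.89 ± 0.20 and 0.57 ± 0.20). So was PEK, another such kinase, which was chosen after its values were seen (0.91 ± 0.19, 0.81 ± 0.19 and 0.53 ± 0.19). Around the cap, Pdcd4, whose mammalian counterpart inhibits eIF4A, was lower at these times (-0.86 ± 0.12, -1.09 ± 0.12 and -0.46 ± 0.12).

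The scaffold gene mxt, whose product binds eIF4E, was lower at 8 and 72 h (-0.51 ± 0.09 and -0.72 ± 0.09), and me31B, a helicase that represses mRNAs, was lower at 24 and 72 h (-0.71 ± 0.18 and -1.11 ± 0.18). Akt, a growth-signalling kinase, was higher at 24 and 72 h (0.61 ± 0.18 and 0.81 ± 0.18), and orb2, an mRNA-binding regulator, at 72 h (0.87 ± 0.20). The largest adjusted p among the values of these 9 genes was 0.0355 (limma). The 24 h call of Akt was lost without control replicate 3 (adjusted p = 0.0763). At 72 h the call of Gcn2 was lost without replicates 3 or 4 of either group, that of PEK without these or MMS replicate 1, and that of PPP1R15 without MMS replicates 1, 2 or 3 or control replicates 1, 2 or 4 (adjusted p-values up to 0.120, 0.193 and 0.103).

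Of 16 listed elongation and termination factors, 12 were measured. At 8 h 3 were higher and 4 lower (8.85% and 11.5% of all genes). At 24 h 1 was higher and 4 lower (10.2% and 10.0% of all genes), and at 72 h 0 were higher and 4 lower (17.0% and 12.5% of all genes). The median differences were -0.09, -0.17 and -0.12. eRF1, which recognises stop codons, was lower at all 3 times (-0.23 ± 0.07, -0.27 ± 0.07 and -0.62 ± 0.07), as was mEFTu1, a mitochondrial elongation factor (-0.44 ± 0.08, -0.30 ± 0.08 and -0.24 ± 0.08). Other mitochondrial factors were lower, namely mEFG1 at 8, 24 and 72 h (-0.29 ± 0.10, -0.58 ± 0.10 and -0.30 ± 0.10) and mEFTs at 72 h (-0.32 ± 0.09). eEF5, the fly eIF5A, was higher at 8 h (0.48 ± 0.09), and HBS1, which helps free stalled ribosomes, was lower at 8 h and higher at 24 h (-0.31 ± 0.08 and 0.57 ± 0.08). The largest adjusted p among these values was 0.0369 (limma). At 8 h the call of eRF1 was lost without MMS replicate 2 or control replicate 1 (adjusted p-values up to 0.0970), and that of mEFG1 without MMS replicates 1, 2 or 4 or control replicates 1, 3 or 4 (up to 0.118). At 72 h mEFTu1 was lost without MMS replicate 3 (adjusted p = 0.0617) and mEFG1 without MMS replicate 2 (adjusted p = 0.131).

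Markers of other cell types moved with MMS to some extent. Of the 4 neuron markers, 2 were higher at each of 8, 24 and 72 h, and their mean level per array was 5.92 to 6.27 in MMS and 5.74 to 5.85 in control cultures at 8 h, 5.29 to 5.38 in MMS and 4.95 to 5.13 in control cultures at 24 h, and 5.77 to 5.95 in MMS and 5.16 to 5.29 in control cultures at 72 h. Of the 4 germline markers, 3 were lower at 24 h, with mean levels of 6.06 to 6.47 in MMS and 7 to 7.09 in control cultures. At 8 h 0 of them were higher and 0 lower, and at 72 h 1 was higher and 1 lower. Of the 12 hemocyte markers, 1 was lower and 1 higher at 8 h, 6 were lower and 2 higher at 24 h, and 4 were lower and 4 higher at 72 h. Of all genes, 8.85% were higher and 11.5% lower at 8 h, 10.2% and 10.0% at 24 h, and 17.0% and 12.5% at 72 h. In bulk RNA from a culture, fewer cells of a kind and less RNA per cell cannot be told apart, and the part of these markers in the results for initiation factors was not tested.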

How the data were processed

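RNA of Kc167 cultures was hybridised to 36 Affymetrix Drosophila Genome 2.0 arrays. Each array has 1 deposited log2 value for every probe set, credited to RMA in the submitters' processing notes (version not given in the sources used). RMA corrects background and forces a common distribution on all arrays, so each change is measured against the other genes and says nothing of the amount of RNA in a cell. Arrays carry no sequencing depth, and their number limits the precision. The table held 18952 probe sets (13646 with 1 gene, 402 with several, 4721 not listed and 183 controls), with values from 2.67 to 14.74, array correlations within groups of 0.984 to 0.998 and 0 columns without a sample. Names came from the platform annotation, checked by gene identifier (103 not found, 0 changed). Another 2 probe sets naming eIF4E7 with a second gene were left out. The brightest probe set stood for each of 1094 genes that had more than 1.

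A mean for each of the 9 groups was fitted over all 36 arrays with limma 3.58.1 in R 4.3.3 (27 residual and 5.37 prior degrees of freedom), without covariates, in place of the permutation analysis run by the array service. P-values were two-sided and adjusted by the Benjamini-Hochberg method over 11981 genes. The fit was tested on simulated data. Groups and replicate numbers came from the labels. Deviations from the group means of same-numbered MMS and control arrays correlated at 0.356 to 0.529 at 24 h, and those of differently numbered arrays at -0.489 to 0.5. Numbers 1 and 2 went together (0.358 and 0.5 across them), as did 3 and 4 (0.242 and 0.324). The numbers were taken to pair the arrays at that time only, on the evidence of the data and not of a stated batch. These values do not separate pairing by number from such sets of arrays. At 1, 8 and 72 h the correlations of same-numbered arrays were -0.436 to 0.203, -0.0311 to 0.462 and -0.294 to -0.0148. Alternatives were a filter at a mean of 5, other scalings, other probe set summaries, a variance trend, fewer arrays, the replicate block and leaving out each array.

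Values on every array are given for members past the adjusted p and 2-fold in any MMS comparison and for up to 3 others with the smallest adjusted p at each of 8, 24 and 72 h. From each list, up to 4 genes with the smallest adjusted p at each of these times are named, with differences ± SE only. Array values of further members were chosen after their values were seen. The genes, lists and alternatives were chosen with earlier results of these data known. Figures were drawn with matplotlib 3.10.9.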

Additional observations from a re-analysis of the deposited data

Results flagged for a closer look

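Of 90 sets of 4 arrays tested for a value far from the other 3 (Dixon's test, 10 named genes in 9 groups), 11 were picked out, and chance gives about 1 in 20. In MMS 1 h replicate 3, eIF4B read 5.53 (the others 6.55 to 6.71) and eIF5 10.38 (the others 11.15 to 11.18). In MMS 8 h replicate 1, eIF5 read 10.99 (11.40 to 11.47) and eIF3j 11.57 (11.75 to 11.79). In control 0 h replicate 4, eIF5 read 10.56 (11.04 to 11.05) and eIF5B 11.56 (11.79 to 11.83), and in control 0 h replicate 3, eIF2beta read 12.51 (12.77 to 12.80). The others were eIF4E6 in MMS 24 h replicate 2 at 5.23 (5.86 to 5.94), eIF5 in MMS 24 h replicate 4 at 10.89 (11.18 to 11.22), eIF3e in MMS 72 h replicate 1 at 12.69 (all others 12.74) and eIF4B in control 72 h replicate 4 at 8.40 (8.82 to 8.86). All 11 were the lowest of their group.

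Effects that differed between times by limma's test of the difference, on the log2 scale as the later minus the earlier effect, were these. Between 24 and 8 h they were 1.03 for eIF2D, 0.61 for eIF6, 0.55 for eIF2Bdelta, 0.50 for eIF2Bbeta, 0.35 for eIF2Bgamma, -0.44 for eIF4E1, -0.56 for eIF5B and -0.59 for eIF4EHP. Between 72 and 24 h they were 0.79 for eIF4E6, -0.32 for eIF2Bgamma, -0.38 for eIF4E4, -0.55 for eIF2Bdelta and -2.23 for eIF4B. The comparison with 8 h crosses arrays that differ in the 3' and 5' control signals, and the part of this was not tested.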

How the results depend on the processing

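The values of single genes counted here are those of the genes chosen by a 2-fold change or the smallest adjusted p at a time. Among them, none past the threshold changed direction. Below it, the differences of eIF6 and eIF5B at 8 h lay on both sides of 0 when single arrays were left out (-0.07 to 0.03 and -0.01 to 0.11). Of 500 values of these genes under the alternatives, 481 kept their side of the threshold, 11 lost it and 8 gained it. Because of how the genes were chosen, this share does not describe the other initiation factor genes. With all of those included, 4 of 15 calls at 8 h, 12 of 17 at 24 h and 16 of 20 at 72 h held for each array left out. Of 177 counts, 148 stayed within 1.5 times and 29 did not. The counts at 1 h were 0 in every setting and are among those that stayed. Leaving out single arrays gave 5 to 17 changed genes at 8 h, 13 to 18 at 24 h, 17 to 21 at 72 h, 4 to 9 for the effect at 24 h against 8 h, 3 to 5 for 72 h against 24 h, and 4 to 8 in control cultures at 24 h. With an intensity trend in the prior variance, 5 genes passed for 24 h against 8 h in place of 8. A further quantile normalization left 3 in place of 5 for 72 h against 24 h. In control cultures at 24 h, 4 passed with only the arrays of the contrast and 5 without the 8 h arrays (this one chosen after the data were seen), in place of 8.

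With the replicate number as a block in the fit over all arrays, 14, 18 and 20 genes passed at 8, 24 and 72 h, in place of 15, 17 and 20. A block within the arrays of one time, chosen after the data were seen, gave 15, 20 and 14. At 24 h, where the numbers were taken to pair the arrays, it kept all 17 genes and added eIF2Bepsilon, eIF3c and eIF5. At 72 h the arrays share only a number. The block over all arrays moved the counts for effects between times and for control cultures at 24 h as given with those results, and left the counts of control cultures at 8 and 72 h at 18 and 19.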
